A study of Mus musculus with 3 samples.

Results

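FOXF1 sites at the ends of long noncoding RNA (lncRNA) genes were examined in the fetal mouse lung. The tissue was whole lung of C57BL/6 wild-type animals at embryonic day 18.5, and 2 biological replicates of FOXF1 ChIP-seq, with 3 pooled lungs in each, were set against a 2% input of the same tissue and stage. The authors called peaks for each replicate against that input, which is the only reference, so there is no second genotype or treatment. A whole lung holds many cell types, and the cells that carry a site cannot be told apart in these data. Summits of the 2 replicates that were each other's nearest and at most 100 bp apart made 1 shared site, set at their midpoint. Of 51013 shared sites, 1605 lay within 1 kb of an end of a RefSeq lncRNA gene and over 5 kb from every protein-coding gene end. These 1605 sites are the subject here, and they were chosen by position alone, not by their scores.

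A lncRNA is a transcript that is made like a messenger RNA but encodes no known protein, and some lncRNAs serve as precursors of microRNAs or small nucleolar RNAs or act on genes in their neighbourhood. FOXF1 is a forkhead transcription factor of the lung mesenchyme and endothelium, and forkhead proteins bind a short core motif read as TAAACA on one strand and TGTTTA on the other. Vertebrate gene starts differ in their content of the dinucleotide CG: many housekeeping starts are rich in it, and many tissue-restricted starts are poor in it. The 1605 sites belonged, by nearest end, to 1451 lncRNA genes, of which 1371 carry only a provisional symbol (Gm, LOC or Rik) and 420 have a curated RefSeq transcript. Most genes had 1 site (1308), 132 had 2 and 11 had 3. For 45 sites, ends of more than one lncRNA gene lay within 1 kb.

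Start sequences are printed for the 6 highest sites that fell inside a RefSeq start window. Meg3 and Xist were added as well-known lncRNAs. Their sites had score percentiles among all shared sites of 32.5 (Meg3) and 6.87 (Xist) in replicate 1. In replicate 2 these were 55.9 and 65.8. The printed windows are examples and do not stand for all sites at lncRNA ends. A start window runs from 250 bases before to 50 bases after an annotated start, 300 bases in all, and is given 5′ to 3′ in the direction of transcription (RefSeq, GRCm38.p6, the same assembly as mm10). Capitals mark the forkhead core TAAACA or TGTTTA. All 6 windows of the highest sites held this core, but only 103 of 290 lncRNA start windows with a site did (35.5%). Most sites at lncRNA ends (1335, 83.2%) lay in no start window. lncRNA genes of unknown strand have no start window, and 385 sites were at such genes, so some sites counted as outside may lie at a start.
Gm17745 (chr10:93335961-93336260, + strand): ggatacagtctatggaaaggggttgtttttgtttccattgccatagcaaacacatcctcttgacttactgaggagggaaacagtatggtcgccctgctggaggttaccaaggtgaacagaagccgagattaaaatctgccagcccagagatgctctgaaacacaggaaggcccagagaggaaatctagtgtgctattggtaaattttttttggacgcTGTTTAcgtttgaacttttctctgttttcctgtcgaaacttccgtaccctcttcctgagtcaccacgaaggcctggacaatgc
Gm30525 (chr11:53307732-53308031, - strand): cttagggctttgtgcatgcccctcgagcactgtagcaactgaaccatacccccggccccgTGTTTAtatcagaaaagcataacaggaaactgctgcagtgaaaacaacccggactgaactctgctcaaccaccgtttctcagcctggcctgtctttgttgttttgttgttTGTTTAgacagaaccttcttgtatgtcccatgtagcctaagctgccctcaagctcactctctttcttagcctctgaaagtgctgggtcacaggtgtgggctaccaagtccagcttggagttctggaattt
Malat1 (chr19:5802623-5802922, - strand): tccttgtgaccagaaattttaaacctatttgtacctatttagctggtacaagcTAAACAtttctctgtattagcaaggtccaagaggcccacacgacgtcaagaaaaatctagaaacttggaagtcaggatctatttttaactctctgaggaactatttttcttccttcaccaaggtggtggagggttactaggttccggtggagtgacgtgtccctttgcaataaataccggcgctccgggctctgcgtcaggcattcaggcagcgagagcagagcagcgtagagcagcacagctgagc
1700011C11Rik (chr7:71960925-71961224, + strand): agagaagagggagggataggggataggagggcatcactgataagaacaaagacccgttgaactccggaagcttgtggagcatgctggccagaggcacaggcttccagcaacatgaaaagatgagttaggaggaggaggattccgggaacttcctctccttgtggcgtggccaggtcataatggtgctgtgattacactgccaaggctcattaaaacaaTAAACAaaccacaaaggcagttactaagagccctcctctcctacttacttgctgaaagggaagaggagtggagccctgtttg
Gm30970 (chr14:79135168-79135467, - strand): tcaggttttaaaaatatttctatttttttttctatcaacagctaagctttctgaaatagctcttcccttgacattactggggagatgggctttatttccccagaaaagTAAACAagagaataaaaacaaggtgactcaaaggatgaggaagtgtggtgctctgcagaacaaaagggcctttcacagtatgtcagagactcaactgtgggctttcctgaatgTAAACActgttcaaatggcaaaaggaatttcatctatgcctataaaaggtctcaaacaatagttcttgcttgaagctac
Gm33370 (chr5:96922100-96922399, - strand): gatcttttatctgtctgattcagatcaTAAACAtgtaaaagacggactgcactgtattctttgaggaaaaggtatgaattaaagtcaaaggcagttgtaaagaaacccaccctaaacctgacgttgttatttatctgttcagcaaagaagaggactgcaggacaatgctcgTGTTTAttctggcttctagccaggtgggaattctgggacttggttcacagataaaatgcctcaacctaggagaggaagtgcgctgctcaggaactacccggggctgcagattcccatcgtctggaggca
Meg3 (chr12:109540746-109541045, + strand): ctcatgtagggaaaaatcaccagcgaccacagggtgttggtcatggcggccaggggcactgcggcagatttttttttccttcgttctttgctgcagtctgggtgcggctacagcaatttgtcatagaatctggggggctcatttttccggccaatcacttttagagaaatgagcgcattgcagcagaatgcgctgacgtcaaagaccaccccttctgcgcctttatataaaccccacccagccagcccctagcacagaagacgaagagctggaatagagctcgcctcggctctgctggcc
Xist (chrX:103483184-103483483, - strand): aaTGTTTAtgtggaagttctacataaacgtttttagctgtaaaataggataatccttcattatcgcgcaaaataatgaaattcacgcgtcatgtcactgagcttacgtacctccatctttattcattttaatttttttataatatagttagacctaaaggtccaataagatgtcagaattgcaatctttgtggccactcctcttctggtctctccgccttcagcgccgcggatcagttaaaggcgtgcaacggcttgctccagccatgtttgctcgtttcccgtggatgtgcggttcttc
Gm17745 is a lncRNA gene with a provisional symbol and a curated RefSeq transcript. Its shared site lay 25034 bp from an end of the ETS factor gene Elk3. The site was 18 bp before the start and 12.5 bp from the centre of the core motif. In Gm30525 the site lay 90 bp before the start and 12.5 bp from the nearer of 2 core motifs. In Gm30970 both core motifs were part of the longer motif GTAAACA, and in Gm17745 the core was part of its reverse complement TGTTTAC. In Malat1 the site lay 31 bp after the start, 225.5 bp from the only core motif of the window. Meg3 had no core motif in its window and a site 9 bp after its start. In Xist the site lay 22 bp after the start, 267.5 bp from the core motif.

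Sites gathered at lncRNA starts, and much less at their 3′ ends. The strand of 9533 of the 12727 lncRNA genes was known from the start windows, which placed 782 sites at a start and 438 at a 3′ end, while 385 sites were at genes of unknown strand. Of 7410 lncRNA starts that could hold such a site, 10.6% did (787, exact 95% interval 9.93 to 11.3%), and of 7999 3′ ends 5.61% did (449, 5.12 to 6.14%). At starts the sites lay a median of 266.5 bp from the end and 27.4% (214) lay within 100 bp of it. At 3′ ends the median was 480.5 bp and 11.9% (52) lay within 100 bp.

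The position of all shared sites around lncRNA ends over 10 kb from any protein-coding end showed the same peak, also in windows wider than the 1 kb of the definition. Within 100 bp of 6343 starts there were 147 shared sites per kb and 1000 starts, against 28.6 at 2 to 5 kb from them, a 5.13-fold difference. Around 6673 3′ ends the densities were 34.5 and 28.9 per kb and 1000 ends, a 1.19-fold difference. Each replicate's own list, before pairing, had the peak: the ratio at starts was 4.16 in replicate 1 and 4.91 in replicate 2, and at 3′ ends it was 1.23 and 1.19. The gap between starts and 3′ ends was therefore larger than the gap between replicates. No test was run on it, since sites are not replicates of a condition and there are 2 libraries.

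**Figure D1:**
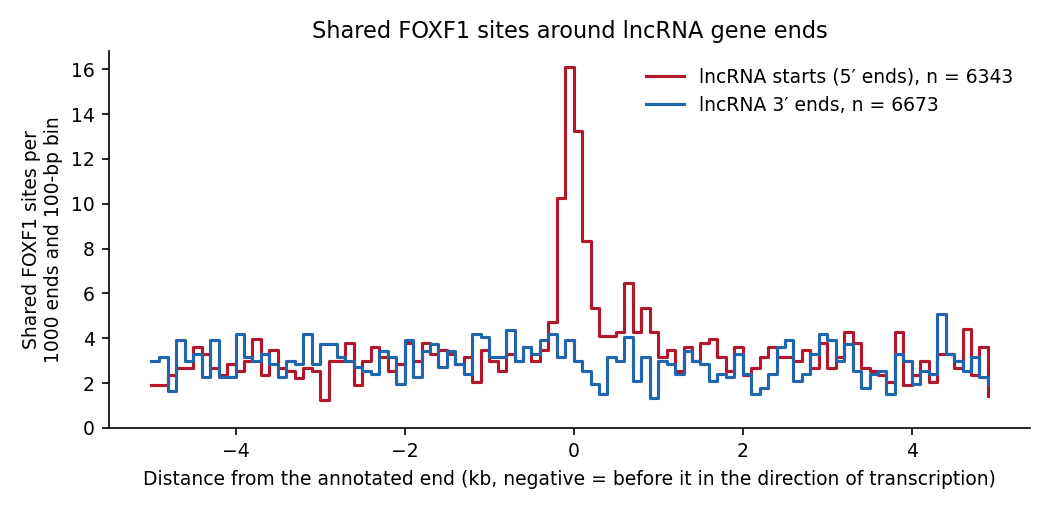
Shared FOXF1 sites per 1000 lncRNA gene ends in 100-bp bins (vertical axis) against the distance from the end in kb, negative before it in the direction of transcription (horizontal axis), for 6343 starts (red) and 6673 3′ ends (blue) over 10 kb from protein-coding gene ends. The starts carry a narrow peak at 0 kb and the 3′ ends stay near the level seen 2 to 5 kb away.

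lncRNA genes carried a site less often than protein-coding genes did. Of 11434 lncRNA genes with an end that could hold such a site, 1488 (13.0%, exact 95% interval 12.4 to 13.6%) had one within 1 kb of an end, against 9090 of 21887 protein-coding genes (41.5%, 40.9 to 42.2%). These shares are also the background for the gene lists below. The difference lay at starts: 10.6% of lncRNA starts, against 39.6% of protein-coding starts (38.9 to 40.3%) with a shared site within 1 kb. At 3′ ends the shares were 5.61% for lncRNA genes and 5.16% for protein-coding genes (4.84 to 5.50%). lncRNA genes with a curated transcript had a site in 15.5% of cases (433 of 2797) and the others in 12.2% (1055 of 8637). The 2 groups of genes were not counted alike. For lncRNA genes only sites over 5 kb from protein-coding ends counted, while for protein-coding genes any shared site did. A lncRNA gene also entered the count when either of its ends could hold a site. Intervals cover counting error only, and the 2 groups of genes differ in how well their ends are mapped. The part of these differences in the result was not tested.

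The sites at lncRNA ends spanned nearly the whole range of FOXF1 scores. The score of a summit is the authors' −log10 significance against the input, and it depends on read depth, so ranks are given within each replicate as percentiles among all 51013 shared sites. In replicate 1 the scores ran from 5.40 to 310.2 with a median of 46.9, against a median of 44.1 over all shared sites. In replicate 2 they ran from 2.67 to 177 with a median of 19.1, the same as over all shared sites. The median percentiles were thus 53.3 and 49.8. In both replicates at once, 146 of the 1605 sites were in the top 10% of shared sites (9.10%, exact 95% interval 7.73 to 10.6%), where the background over all shared sites is 8.1%. In replicate 1 alone it was 182 sites (11.3%, background 10.1%) and in replicate 2 alone 166 (10.3%, background 9.93%). Those shares are near the background and are no result about sites at lncRNA ends. Other shared sites over 5 kb from protein-coding ends had 9.70% in the top 10% of both replicates, and sites within 1 kb of protein-coding ends had 2.57%. That low share came from replicate 1, where 2.92% of the sites at protein-coding ends were in the top 10%, while in replicate 2 it was 9.39%.

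**Figure D2:**
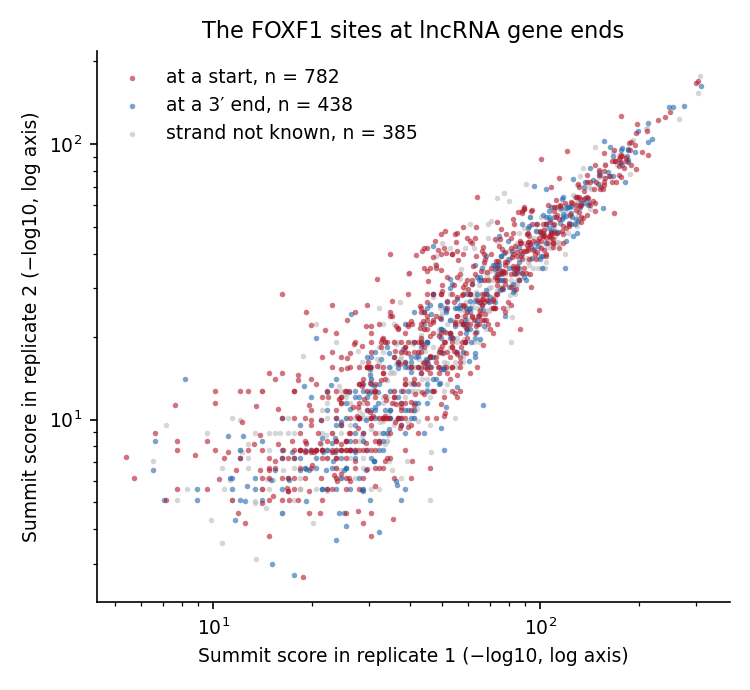
Score of each of the 1605 FOXF1 sites at lncRNA ends in replicate 1 (horizontal log axis, −log10 significance) and replicate 2 (vertical log axis), colored by whether the site lies at a start (red), at a 3′ end (blue) or at a gene of unknown strand (grey). Sites with a high score in one replicate tend to have a high score in the other, over a range from 5.40 to 310.2 in replicate 1 and from 2.67 to 177 in replicate 2.

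The order of scores was similar in both replicates. Spearman's rho was 0.912 and Pearson's r of the log scores was 0.90 across the 1605 sites, given as a description because the sites share their libraries and the input. The median gap between the 2 summits of a site was 14 bp, against 13 bp for the other shared sites. Of the replicate 1 summits that met the position rule, 48.9% of 3297 had a replicate 2 summit within 100 bp, and of the replicate 2 summits 82.1% of 1953 had a replicate 1 summit. The whole lists gave 47.5% and 83.4%. Another shared site lay within 5 kb of 46.4% of the sites (745), against 45.2% of the other sites over 5 kb from protein-coding ends. The sites lay inside a protein-coding gene in 29.8% of cases (478), against 53.5% of those other sites, and their median distance from a protein-coding end was 35122 bp, against 41724.5 bp.

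The highest sites lay outside protein-coding genes in 12 of 20 cases and inside one in the other 8. The 20 highest sites by mean percentile had replicate 1 scores of 198 to 310.2 and replicate 2 scores of 102 to 177, with 7 at a start, 8 at a 3′ end and 5 at genes of unknown strand. The highest of all, at chromosome 5 position 119570329, lay 200 bp inside the left end of AW549542, which is at 119570129, and had a replicate 1 score of 309 and a replicate 2 score of 177. The closest protein-coding end, 100205 bp away, was that of Tbx3, a T-box factor of lung mesenchyme. A second site of AW549542, at position 119580620, had scores of 70.4 and 32.0. Both replicates placed the first of them above more than 99.9% of shared sites.

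The next were at Gm36213 on chromosome 12 position 54479919, 448 bp before its start, with a replicate 1 score of 303 and a replicate 2 score of 169, and at Gm29874 on chromosome 1 position 4617780, 25 bp inside its 3′ end, with 310.2 and 163. The nearest protein-coding end of Gm29874 was that of Sox17, a SoxF factor of endothelium, at 120354 bp. Gm33172 on chromosome 13 had a site at position 110683515, 363 bp before its start, with scores of 299.7 and 167, and a second, low one at its 3′ end with 16.9 and 6.13. The site of Gm38686 (chromosome 12 position 13145914) had 303 and 153, and that of 1110002J07Rik (chromosome 10 position 66911659, 531 bp beyond its 3′ end) had 275 and 138. These 5 sites were high in both replicates.

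The 8 sites inside protein-coding genes lay in genes of varied function. Gm16897 had a site at chromosome 1 position 194955905, inside Cd34, which encodes a sialomucin of endothelial and blood-forming cells, 5387 bp from an end of Cd34, with a replicate 1 score of 219.9 and a replicate 2 score of 104. Gm35383 had a site at chromosome 5 position 147660003, inside Flt1, the gene of VEGF receptor 1, 66435 bp from an end of Flt1, with 198 and 118. The other sites inside protein-coding genes were those of Gm41561 in the dynein gene Dnah8, Gm34849 in BC035044, 4930444A19Rik in Ankrd44, B430010I23Rik in Mtus1, Gm43000 in the calcium channel subunit gene Cacna2d1 and 4921511C10Rik in the exchange factor gene Rapgef2, with replicate 1 scores of 199 to 267 and replicate 2 scores of 111 to 131. Exons and introns were not told apart.

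Outside protein-coding genes, Gm17745, whose start window is printed above, had a replicate 1 score of 241 and a replicate 2 score of 126. The rest of the 20 were the sites of Gm830, Gm32860, Gm30525, Gm46640 and Gm35344, whose nearest protein-coding ends were those of Fggy at 90665 bp, Diaph3 at 346285 bp, Hspa4 at 7392 bp, Stard4 at 46639 bp and Txn1 at 11002 bp, in the same order. Their scores were 210.2 to 255 in replicate 1 and 102 to 136 in replicate 2. Gm32860 had its high site 874 bp beyond the 3′ end and a lower one, with 47.9 and 16.2, near the start. The 20 together ran from 5387 to 346285 bp from the nearest protein-coding end, and 11 of them had another shared site within 5 kb.

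Sites whose nearest protein-coding end was that of a listed transcription factor gene of lung mesenchyme and endothelium were 63 of 1605 (3.93%), at 30 genes of the list, where the background over all shared sites over 5 kb from a protein-coding end is 2.93%. No limit was set on the distance, which ran from 5487 to 1325637 bp with a median of 85438 bp, and 34 of the 63 sites lay within 100 kb. Lincred1, 56237 bp from an end of Lmo2, which encodes an adaptor of blood and endothelial transcription complexes, had a site with a replicate 1 score of 176 and a replicate 2 score of 86.4, and another with 64.1 and 27.3. Chosen after its values were seen, Gm46071 had a site 19 bp from its 3′ end, at chromosome 8 position 121035732 and 48654 bp from an end of Foxf1 itself, with 167 and 76.7. Fendrr, the lncRNA gene next to Foxf1, had no site under the rule. The rule leaves out sites within 5 kb of a protein-coding end, so binding there was not examined for Fendrr.

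Of the listed lncRNAs with a described function, some carried a site, mostly close to an end. Of 55 listed genes found in the table, 47 could hold a site and 17 did, which is 36.2% where 13.0% is the background. All 17 have a curated transcript, and lncRNA genes with such a transcript had a site in 15.5% of cases. The list was chosen with earlier results of these data known and covers well-studied genes, so its share is a description of these genes. Their 22 sites had a median percentile of 43.6 in replicate 1 and 59.7 in replicate 2, and 16 of them lay within 100 bp of the end. Malat1, an abundant nuclear RNA of nearly all cells, had the highest of them, with a replicate 1 score of 176 and a replicate 2 score of 127, and a low one 718 bp beyond its 3′ end with 28.5 and 5.53.

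Meg3, the maternally expressed lncRNA of the Dlk1 domain, had a replicate 1 score of 32.2 and a replicate 2 score of 22.1 at a site 9 bp from its start. H19, a maternally expressed growth-restraining lncRNA, had 14.1 and 12.7, and Kcnq1ot1, which silences its imprinted neighbours, had 27.1 and 19.1. Airn, the antisense transcript of Igf2r, had 54.4 and 30.7. Xist, which coats the inactive X chromosome, had 16.2 and 28.6, Jpx, an activator of Xist, had 34.8 and 39.99, and Firre, an X-linked RNA of nuclear organization, had 14.8 and 14.8. In Xist and Jpx the score of replicate 2 was the higher, which was so for 21 of the 1605 sites (1.31%). By percentile, 14 of the 22 sites of the list ranked higher in replicate 2, against 630 of all 1605 (39.3%). Among sites at lncRNA genes with a curated transcript, as all genes of these 22 sites have, the share was 50.7%.

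Carmn, a smooth muscle lncRNA, had a site 62 bp inside an end with a replicate 1 score of 69.4 and a replicate 2 score of 51.4. Bvht, described in cardiac differentiation, had 27.8 and 17.7 at a site 9 bp from an end, and 20.7 and 5.60 at another. Norad, which sequesters Pumilio proteins, had 39.4 and 33.7, Oip5os1 had 41.9 and 39.7, Dubr had 32.8 and 19.6, and Morrbid, known for controlling the lifespan of short-lived myeloid cells, had 63.0 and 20.6. Neat1, Tug1, Hotair, Pvt1 and Sox2ot were among the 30 listed genes that could hold a site and had none, as were Hand2os1, Chaer1, Gata6os, Miat and Fendrr. A gene was counted as able to hold a site through either end. Binding within 5 kb of a protein-coding end was not examined for these genes.

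**Figure D3:**
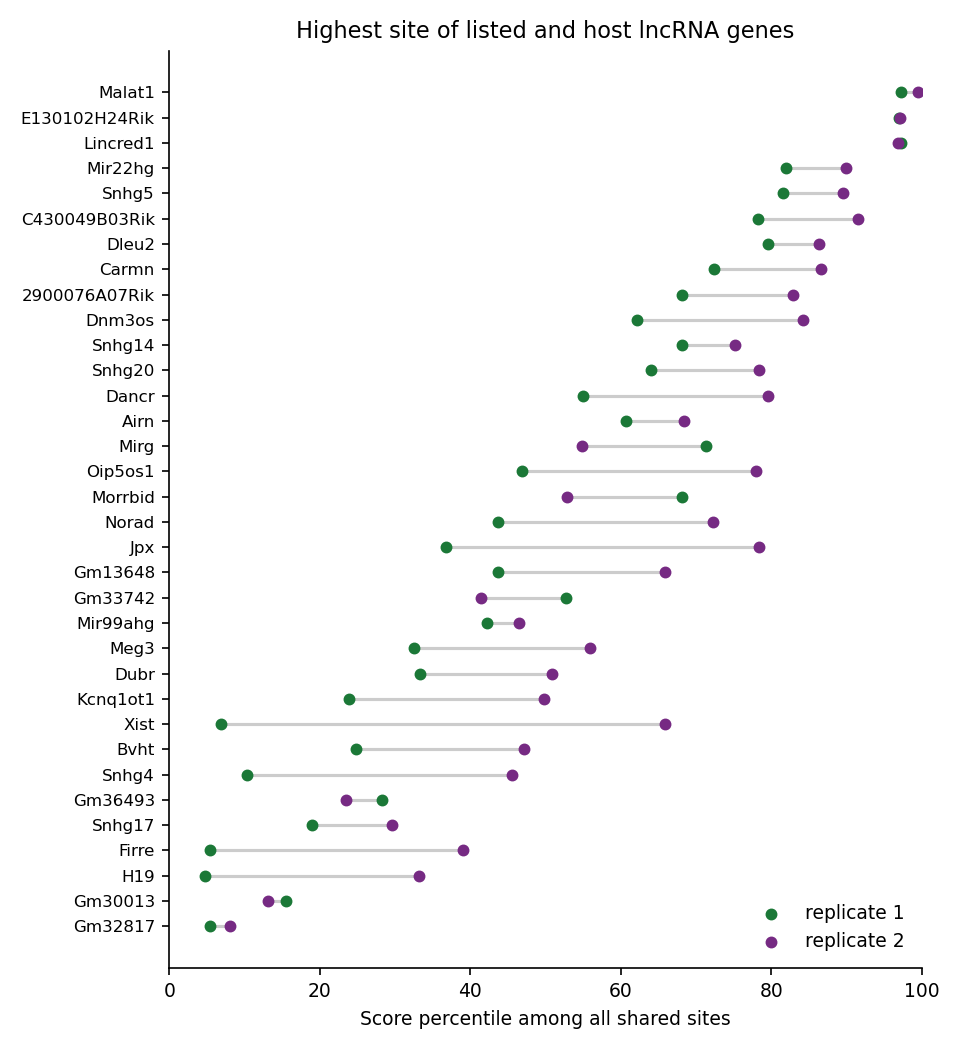
Score percentile among all shared sites in replicate 1 (green) and replicate 2 (purple) for the highest site of each listed, microRNA host or small nucleolar RNA host lncRNA gene with a site (34 genes, highest at the top). In 28 of the 34 the replicate 2 percentile is the higher one, which is so for 630 of all 1605 sites (39.3%). It is so for 50.7% of sites at lncRNA genes with a curated transcript, as most of the 34 have. In CpG-rich lncRNA start windows it is so for 90.6% of sites.

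MicroRNA hosts were taken as lncRNA genes whose symbol starts with Mir or that contain a RefSeq microRNA gene by coordinates. Some of them, such as Mirt1, contain no microRNA gene, and the strand of some is unknown. Of 68 such hosts that could hold a site, 17 had one (25%, background 13.0%), and a pair of them, Gm32817 and Gm53058, share 1 site. The hosts Dnm3os, H19, Meg3 and Mirg were also in the list above, so the lists overlap. The mature sequences they encode, from RefSeq, are shown for 5 of these hosts, chosen after their values were seen because the microRNAs are well known and some share a seed, with the seed (bases 2 to 8) in capitals.
miR-199a-5p: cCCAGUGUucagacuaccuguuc
miR-214-3p: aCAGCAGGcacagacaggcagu
miR-200b-3p: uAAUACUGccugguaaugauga
miR-429-3p: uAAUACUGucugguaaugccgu
miR-16-5p: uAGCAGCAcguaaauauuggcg
miR-322-5p: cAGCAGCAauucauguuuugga
miR-22-3p: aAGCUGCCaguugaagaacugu
miR-200b-3p and miR-429-3p share the seed AAUACUG and lie in the same host, Gm13648, while miR-16-5p of Dleu2 and miR-322-5p of C430049B03Rik share the seed AGCAGCA in different hosts. Dnm3os, the host of miR-199a and miR-214 and an antisense gene inside Dnm3, had a site 63 bp inside its start with a replicate 1 score of 55.8 and a replicate 2 score of 47.5, and a site 584 bp inside its 3′ end with 69.4 and 26.9. Gm13648, the host of miR-200a, miR-200b and miR-429 of the epithelial miR-200 family, had a site 1 bp before its start with 39.4 and 28.6.

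Dleu2 had a site 105 bp before its start with a replicate 1 score of 83.2 and a replicate 2 score of 51.1, and C430049B03Rik had sites with 80.3 and 62.4 and with 50.8 and 16.2. The highest host site was that of E130102H24Rik, the host of miR-101a, 46 bp inside its start at chromosome 4 position 101356202, with 174 and 88.2. Mir22hg, the host of miR-22, had 3 sites around its start, at chromosome 11 positions 75460640, 75461681 and 75462451. Of these the middle one was the highest in both replicates, with 89.3 in replicate 1 and 58.3 in replicate 2, the first had 48.9 and 20.1, and the last had 17.7 and 12.7. Mirg had its 2 sites at the 3′ end, with 67.5 and 21.9 and with 39.4 and 15.5, and Mir99ahg had 1 site, with 38.5 and 17.6.

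Small nucleolar RNA hosts carried sites at 6 of the 10 genes that could hold one (60%, background 13.0%, or 15.5% for genes with a curated transcript). Snhg20 was also counted among the microRNA hosts. Snhg5 had a replicate 1 score of 88.1 and a replicate 2 score of 57.3, Snhg20 had 57.9 and 39.99, Dancr had 48.7 and 41.3, Snhg14 had 63.0 and 36.4, Snhg17 had 24.3 and 11.9, and Snhg4 had 18.8 and 17.0. Of the 6 sites, 5 lay within 50 bp of the end, where 27.4% of all sites at starts lay within 100 bp. All 6 had the higher percentile in replicate 2, against 39.3% of all 1605 sites. Among sites at lncRNA genes with a curated transcript, as these hosts have, the share was 50.7%.

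Sites at CpG-rich lncRNA starts were ranked higher in replicate 2 than in replicate 1, as sites at protein-coding starts of both CpG classes were. A start window was called CpG-rich when its G+C share was over 50% and its observed over expected CG ratio was over 0.6. In CpG-rich lncRNA windows 53 sites had median percentiles of 54.3 in replicate 1 and 75.2 in replicate 2, and 48 of them (90.6%) ranked higher in replicate 2. In CpG-poor lncRNA windows 217 sites had medians of 55.3 and 49.8, and 78 (35.9%) ranked higher in replicate 2. Outside start windows 1335 sites had 53.3 and 49.8, and 504 (37.8%) ranked higher in replicate 2. This last group includes sites at genes of unknown strand, which have no start window. For CpG-rich protein-coding windows the medians of 3119 sites were 48.6 and 69.0, with 96.1% ranked higher in replicate 2. For CpG-poor protein-coding windows the medians of 830 sites were 36.8 and 54.7, with 81.3% ranked higher in replicate 2, so the shift was not limited to CpG-rich starts. For other sites over 5 kb from protein-coding ends they were 52.1 and 46.5, with 33.5%.

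The median G+C share of CpG-rich windows with a site was 64.8%, against 48.5% in CpG-poor windows with a site, a gap that the class definition sets. The paired summits of sites in CpG-rich lncRNA windows lay a median of 21 bp apart, against 15 bp in CpG-poor ones. The part of base composition in the ranks was not tested. The density of sites was highest at CpG-rich starts: within 100 bp of 200 of them there were 700 shared sites per kb and 1000 starts, against 23.3 at 2 to 5 kb, and around 5948 CpG-poor starts 128 against 28.7.

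**Figure D4:**
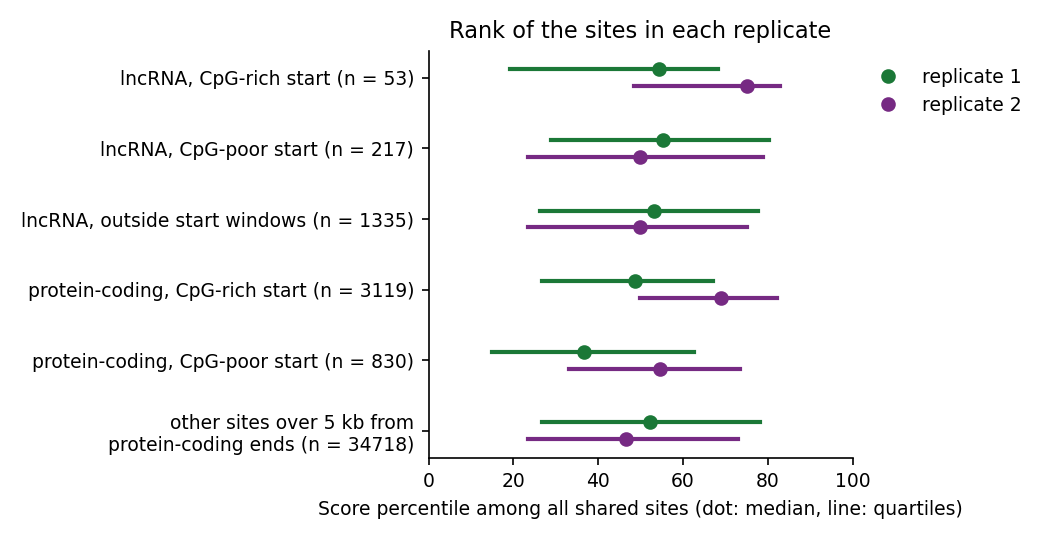
Median (dot) and quartiles (line) of the score percentile among all shared sites in replicate 1 (green) and replicate 2 (purple), for sites in CpG-rich and CpG-poor lncRNA start windows, outside start windows, in protein-coding start windows and for other distal sites. The replicates part at CpG-rich lncRNA starts (54.3 and 75.2) and lie closer at CpG-poor ones (55.3 and 49.8). Sites outside start windows include those at genes of unknown strand, which have no start window.

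The forkhead core was more frequent in CpG-poor lncRNA start windows with a FOXF1 site than in those without. The shorter motif searched was TAAACA, with its reverse complement TGTTTA for the other strand. The longer motif was GTAAACA, with its reverse complement TGTTTAC, and every match of it holds the shorter one. The shorter motif was present in 97 of 230 CpG-poor windows with a site (42.2%, exact 95% interval 35.7 to 48.8%), against 1497 of 8232 CpG-poor windows without a shared site (18.2%, 17.4 to 19.04%). Both sets lay over 5 kb from protein-coding ends and had similar median G+C shares, 48.5% with a site and 46.7% without. Among CpG-rich windows it was present in 6 of 60 with a site (10%) and in 33 of 266 without (12.4%).

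Over all lncRNA windows the shorter motif was in 17.0% and over all 32851 RefSeq start windows in 13.4%. Of the 290 windows with a site of either kind, 103 held it (35.5%, 30.0 to 41.3%) and 27 held the longer motif (9.31%, 6.23 to 13.3%), where the backgrounds for the longer motif are 4.83% over lncRNA windows and 3.65% over all. CpG-poor protein-coding windows with a shared site held the shorter motif in 18.4% of 896 cases (15.9 to 21.1%), against 16.1% of 10819 without (15.4 to 16.8%). CpG-rich protein-coding windows with a site held it in 7.58% of 3455 cases (6.72 to 8.52%), against 4.63% of 6093 without (4.11 to 5.19%). Pooled over both classes, the shares were 9.81% of 4351 with a site and 11.95% of 16912 without, and 79.4% of the windows with a site were CpG-rich, against 36.0% of those without. The 290 windows belong to 274 genes and 270 sites, since alternative starts can share a site, and with 1 window per site the share was 35.9%.

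The distance between motif and site was measured in windows that held both. In the 103 windows the centre of the nearest shorter motif was a median of 24.5 bp from the shared site, and in 52 of them (50.5%) it was within 25 bp. Windows were also split by the mean percentile of their site. The share with the shorter motif was 46.8% above percentile 75 (37 of 79) and 22.7% from 50 to 75 (17 of 75). It was 43.1% from 25 to 50 (28 of 65) and 29.6% below 25 (21 of 71), which is no steady order. The longer motif was in 18.99% (15 of 79) above percentile 75 and 5.33% (4 of 75) from 50 to 75. From 25 to 50 it was in 9.23% (6 of 65), and below 25 in 2.82% (2 of 71). CpG-rich windows made up 33.3% of the group from 50 to 75, against 15.2 to 16.9% of the other groups. The part of CpG class in these shares was not tested. A match is a sequence description and not a demonstration of contact, and a window without a match may hold other forkhead motifs.

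**Figure D5:**
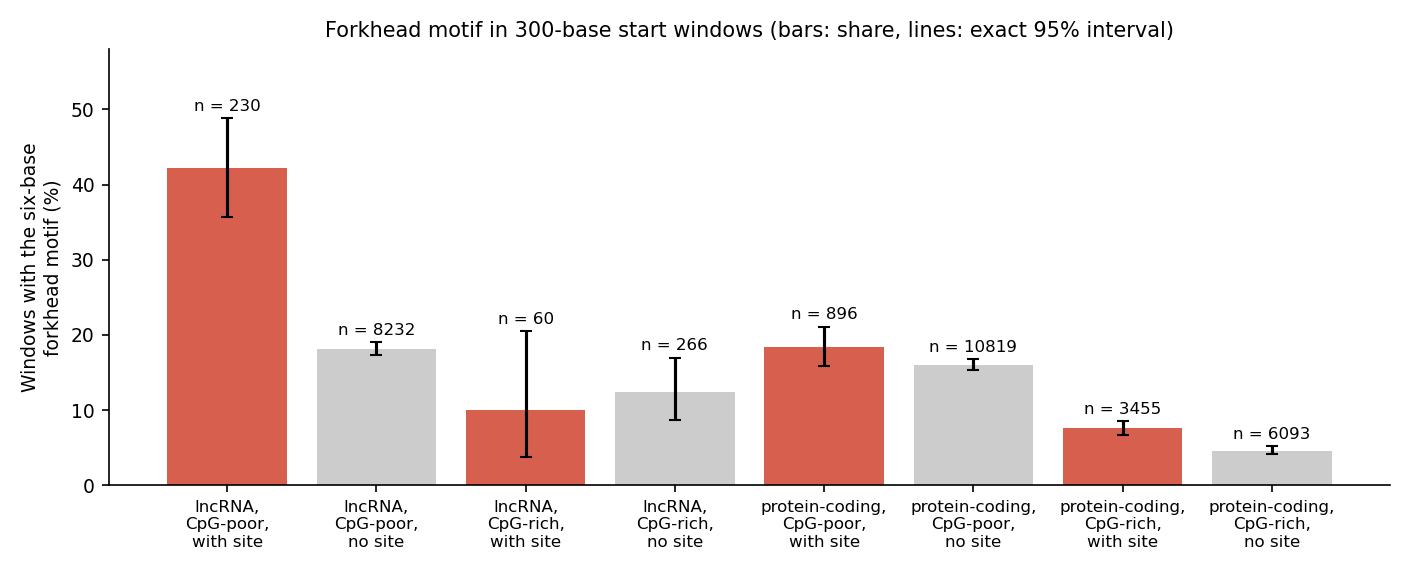
Share of 300-base start windows with the six-base forkhead motif (vertical axis, percent; lines are exact 95% intervals for counting error) for lncRNA and protein-coding windows with (red) and without (grey) a shared FOXF1 site. The bar for CpG-poor lncRNA windows with a site (42.2%) is above that for those without (18.2%), the CpG-rich lncRNA pair (10% and 12.4%) overlaps, and the CpG-poor protein-coding bars are at 18.4% and 16.1%.

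Some genes had several sites, and 72 had one at the start and one at the 3′ end. Gm33716, inside Cpvl on chromosome 6, had 3 sites, with a replicate 1 score of 187 and a replicate 2 score of 101 before its start, and 93.3 and 54.4 and 42.2 and 15.5 around its 3′ end. Gm35116, 29314 bp from an end of the endothelin receptor gene Ednrb, had 178 and 96.6 beyond its 3′ end and lower sites around its start, with 43.2 and 24.5 and with 12.2 and 9.81. Gm29916 had its highest site, with 116 and 63.4, beyond its 3′ end, and 9 bp before its start a site with 87.3 and 43.7. Gm52869 in Eif4e3 and Gm41330 in Mtss1 also had 3 sites, whose highest reached 115 and 59.8 and 112 and 47.5. Gm39041 in Abhd2 had 214 and 91.1 near its start and 23.5 and 8.54 near its 3′ end.

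The lowest sites were those of Gm46799, with a replicate 1 score of 10.6 and a replicate 2 score of 3.56, Mecomos, with 9.86 and 4.32, and 1700016A09Rik, with 7.08 and 5.10. The replicates differed most at Xist, with percentiles 59.0 points apart, at Gm30413, with scores of 45.97 and 5.10, and at 8430432A02Rik, with 19.2 and 24.5. Just inside the limit of 1 kb were sites at Gm21123 (1000 bp, scores 97.3 and 43.7) and LOC108168762 (998 bp, 21.4 and 7.78), and just outside it sites at Gm36309 (1001 bp, 178 and 68.6) and Gm33836 (1002 bp, 84.0 and 43.3). Just inside the limit of 5 kb were sites at Gm20556 (5036 bp, 74.8 and 46.5) and A930015D03Rik (5039 bp, 22.2 and 12.7), and just outside it sites at Gm16576 (4992 bp, 54.8 and 16.2) and 4930445K14Rik (4987 bp, 202 and 96.3). The values on either side of each limit overlapped.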

How the data were processed

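Per the submitters' processing notes, the authors called peaks with MACS2 on mm10, and per the peak names each replicate was called against the input. Each deposited entry is a single-base summit with a score that is −log10 of a significance value (p or q is not stated). The aligner, the versions, the handling of duplicates and the depth were not given in the sources used here. Precision per library is therefore unknown. The lists held 107388 summits for replicate 1 and 61178 for replicate 2, of which 107378 and 61172 were on chromosomes 1 to 19, X and Y.

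From these, summits were paired, placed and ranked with Python 3.11.15, pandas 2.3.3, numpy 2.4.6 and scipy 1.17.1, and pairing and distances were checked on simulated sites. Genes, strands and start windows came from RefSeq tables on GRCm38.p6, with 12727 lncRNA and 21887 protein-coding genes. A gene could hold a site when an end lay over 4 kb from protein-coding ends. No test between conditions exists with 2 libraries of 1 group, so shares carry exact (Clopper-Pearson) 95% intervals, for counting error only. The sites and gene lists were chosen with earlier results of these data known. CpG classes, densities around ends and the motif shares by class were chosen after seeing the data. Named genes followed a rule: the 20 highest sites by mean percentile, genes with most sites or sites at both ends, the lowest and most discordant sites, those at the limits, and listed genes with a site. Alternatives changed the pairing distance, both distance limits, the score threshold, the gene set and the replicates used.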

Additional observations from a re-analysis of the deposited data

How the results depend on the processing

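The 1605 sites became 976 with lncRNA ends within 500 bp, 2647 within 2 kb, 789 from the 30000 highest summits of each replicate and 476 with curated lncRNA genes only, and the 1451 genes became 935, 2105, 747 and 426 in the same order. The share of lncRNA genes with a site, 13.0%, was 11.4% at a pairing distance of 50 bp, 14.0% at 200 bp, 8.43% within 500 bp, 18.4% within 2 kb, 14.2% when sites over 1 kb from protein-coding ends were kept, 10.2% with scores of at least 10 in both replicates, 6.70% with the 30000 highest summits and 15.5% for curated genes. The median of the mean percentile over both replicates, 51.1, became 63.5 with scores of at least 10, 76.6 with the 30000 highest summits (both raised by construction) and 55.3 for curated genes. The share in the top 10% of both replicates, 9.10%, became 11.9% and 18.5% under the same 2 score thresholds, where all shared sites had 10.4% and 17.4%, against 8.1% without a threshold. The share at starts, 64.1% of sites of known strand, was 69.4% within 500 bp, 59.1% within 2 kb and 71.4% for curated genes, above 50% in each.

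The share of start windows with the shorter forkhead motif, 35.5%, was 24.8% for curated genes, whose cause was not tested, and the density ratio at starts, 5.13, was 8.73. With 1 replicate left out, using every summit of the other list, the count of sites was 1953 to 3297 (3297 without replicate 2, whose list is the shorter), of genes 1656 to 2602, the share of genes 14.8 to 23.2%, the median percentile 50.6 to 52.5, the share in the top 10% 10.3 to 11.7% (9.90 to 9.93% over all summits), the share at starts 61.5 to 65.4%, the motif share 32.2 to 32.9% and the density ratio 4.16 to 4.91. The mean percentile of the 20 named sites was 98.62 to 99.99 at a pairing distance of 50 bp and 99.1 to 99.99 within the full lists. No paired analysis was possible because there is 1 group of ChIP libraries and the input has no list of its own here. Depth per library is unknown, so what sets apart a site listed in 1 replicate alone was not tested.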
